A study of Cyprinus carpio with 6 samples.

Results

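The genes that fill, empty and clear the calcium stores of the cell were followed in the brain of common carp (Cyprinus carpio) with and without lead. Members were taken by a rule on names: a gene was included if its description named a ryanodine receptor, an inositol 1,4,5-trisphosphate (IP3) receptor, a sarcoplasmic/endoplasmic reticulum calcium ATPase (SERCA), a plasma membrane calcium-transporting ATPase (PMCA) or a sodium/calcium exchanger (NCX), and 6 genes described as interacting with one of these were left out. This gave 70 of the 53152 genes in the table, made up of 22 ryanodine receptor, 11 IP3 receptor, 13 SERCA, 13 PMCA and 11 NCX genes. Poly(A) RNA had been sequenced in 3 libraries whose agent label is none (control) and 3 whose agent label is lead, and the stated question was how lead injures the carp brain. The labels give no dose, duration, strain, age or sex, and leave unsaid whether the libraries are of separate fish, so that p-values measure only the spread between these libraries, which may be technical.

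Calcium is kept low in the cytosol and high in the endoplasmic reticulum. Ryanodine receptors and IP3 receptors are the channels that release it from this store, the first opened mainly by calcium or by a voltage sensor of the surface membrane and the second by IP3, and SERCA pumps refill the store at the expense of ATP. PMCA pumps and NCX exchangers move calcium out across the surface membrane, the pumps with high affinity and the exchangers with high capacity, in exchange for sodium. In neurons these proteins set how long a calcium signal lasts. The common carp carries an additional genome duplication, so most of these proteins are encoded by several gene copies, and each copy was kept separate.

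Total counts over genes ranged from 27841520 to 34848243 per library. Brain markers were present in every library: the 4 genes for the synaptic protein SNAP25 summed to between 978.5 and 1501 CPM (counts scaled to library size by TMM, the trimmed mean of M-values), and the 2 genes for the glial filament protein GFAP to between 576.4 and 647.4 CPM in control and between 356.0 and 401.8 CPM in lead libraries, without overlap. Levels are given in this unit, with the SD over the 3 libraries of a group. Levels of different genes are compared only in FPKM (fragments scaled to transcript length and library size). Differences are log2 fold changes of lead over control, with the p of edgeR's quasi-likelihood test, adjusted over all 32149 genes that reached 1 FPKM in at least 3 libraries. The test gives no standard error (SE). The SE was derived as the absolute log2 fold change divided by the square root of the test's F statistic.

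No member passed an adjusted p of 0.05, and 19 of all genes tested did, or 0.0591% (0.0124% lower and 0.0467% higher with lead). Without adjustment, pumps and exchangers lay mainly on the lower side in lead libraries and ryanodine receptors mainly on the higher side. The members lowest relative to control, with log2 fold changes of -1.50 or below, were copies of SERCA1 and SERCA2, which refill the store, of NCX1, the exchanger of heart and brain, of PMCA3, a surface pump, and of IP3 receptor 1. The IP3 receptor 1 copy, LOC109063861, reached 1 FPKM in control libraries only. All 5 copies of this receptor summed to 45.4 CPM in control and 45.3 CPM in lead libraries. The PMCA3 copy, LOC109048759, reached 1 FPKM in only 1 lead library. The highest was a ryanodine receptor 2 copy, at a log2 fold change of 0.80. Of the 70 members, 47 were tested, and 15 of these were lower at an unadjusted p under 0.05 (31.9%), beside 8.77% of all genes tested. On the higher side were 4 members (8.51%), beside 7.53% of all genes. LOC109063861 and LOC109090493 of the 15 reached 1 FPKM in control libraries only, and so entered the test through the group where they were higher. Among genes that reached 1 FPKM in a library of each group, a limit added after the data were seen, 13 of 45 members were lower (28.9%), beside 8.03% of all genes. This limit asks for only 1 lead library. LOC109070483 and LOC109048759 of the 13 reached 1 FPKM in all 3 control libraries and in only 1 lead library. In 14 tested members all lead libraries lay below all control libraries (29.8%, beside 12.6% of all genes), and in 6 they lay above (12.8%, beside 11.9%). The 14 include LOC109063861 and LOC109090493, which reached 1 FPKM in control libraries only. The median log2 fold change was -0.23 over the tested members and -0.01 over all genes. With DESeq2 in place of edgeR, 8 members were called lower (17.0%, beside 2.23% of all genes) and 1 higher (2.13%, beside 1.89%), each at an adjusted p under 0.05. The 8 include LOC109063861 and LOC109070483, with the limits given above. The shares of separate groups and of DESeq2 calls were not redone among genes at 1 FPKM in a library of each group. Fewer cells of a type and less RNA per cell cannot be told apart in these bulk libraries.

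**Figure D1:**
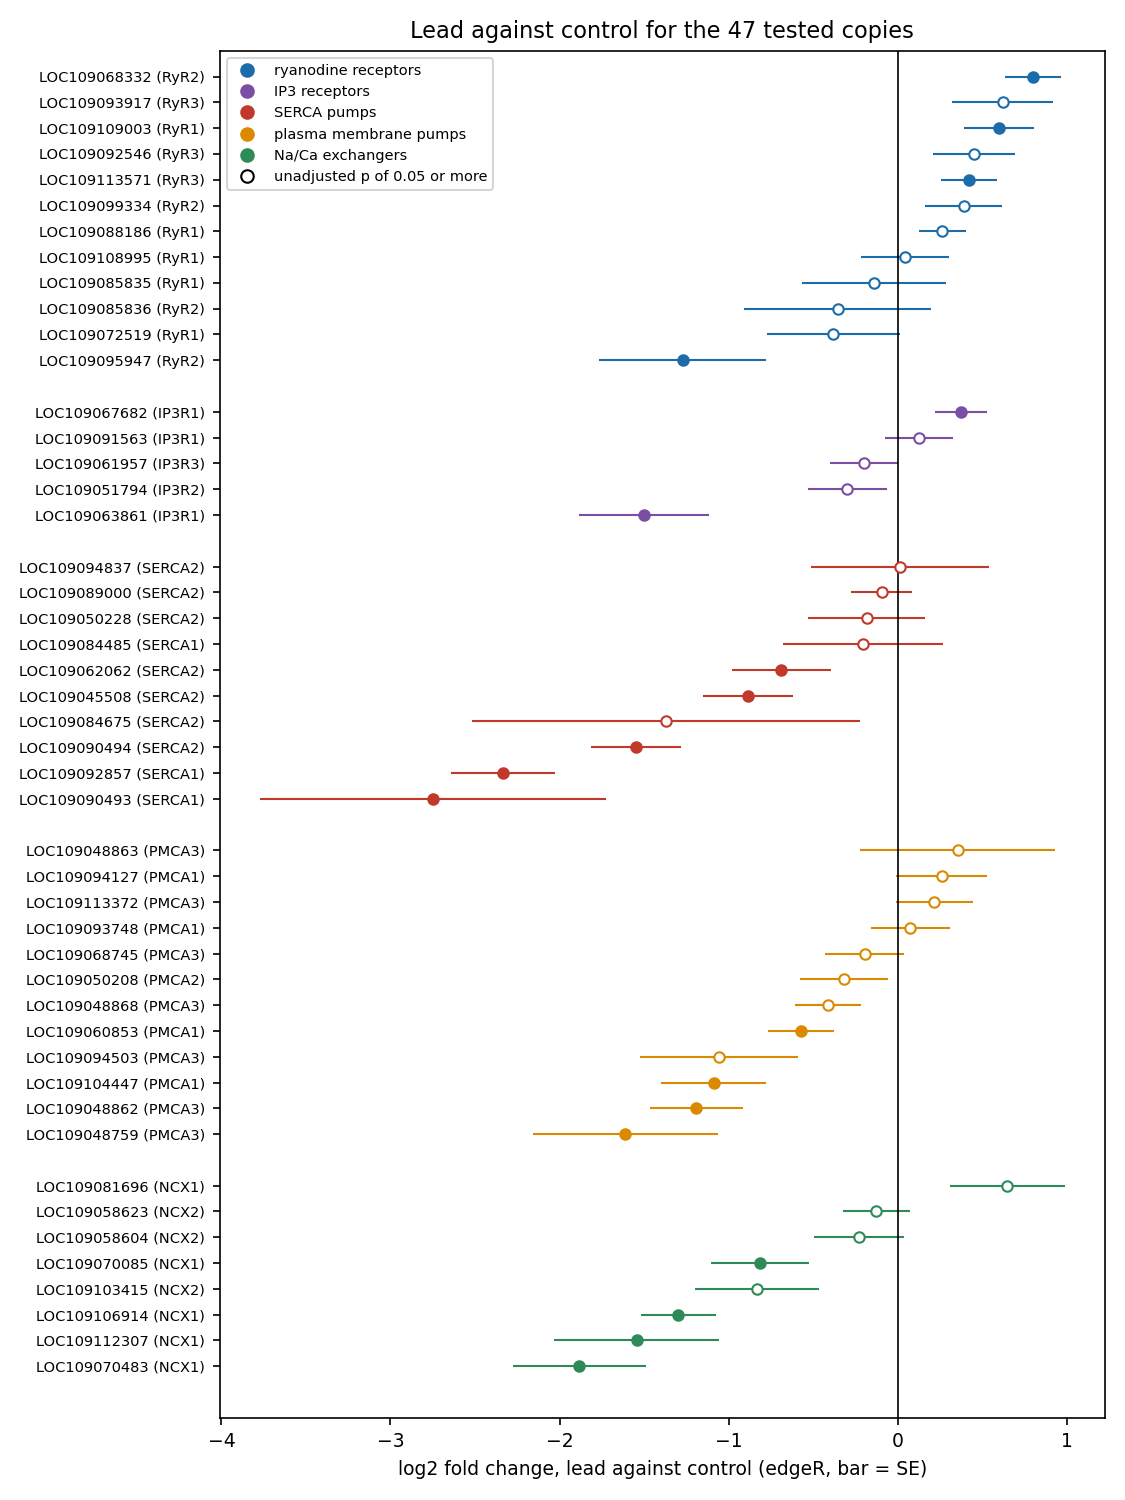
Log2 fold change of lead over control for the 47 tested members, grouped by family. Bars are 1 SE, derived from the F statistic of the edgeR test. Open circles mark an unadjusted p of 0.05 or more. The SERCA and NCX members lie mostly below 0, with family medians of -0.79 and -0.82, and the ryanodine receptors mostly above, with a median of 0.33.

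Several features of the gene models bear on these values. Transcript lengths implied by the ratio of counts to FPKM ran from 241 to 16430 bases with a median of 2150 bases. In the descriptions 7 members were called partial and 20 were marked as of low quality. Only 3 of the 22 ryanodine receptor genes were implied to be at least 14000 bases long, a length chosen after the values were seen. Many members may therefore be fragments of genes, or parts of one gene split in several models. A neighbour of the same family lay within 300000 bases of 27 members, and 10 members were overlapped by another gene. In a RefSeq gene table of another carp assembly, 31 of the member identifiers were protein-coding genes, 4 were pseudogenes, and 35 had no matching identifier. The handling of reads shared by copies or overlapping genes is unknown (not given in the sources used here), so values of single copies are uncertain where copies are nearly alike. Over the 47 tested members, Spearman's rho between implied length and log2 fold change was 0.129, a description across genes, which are not independent.

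Ryanodine receptors reached the highest level per length of the release channels, 179.8 FPKM in a partial model implied to be 1924 bases long. The 3 genes implied to be at least 14000 bases long were at 1.7, 2.3 and 27.2 FPKM, and the highest IP3 receptor gene was at 2.48 FPKM. Of the 12 tested ryanodine receptor genes, 8 had a log2 fold change above 0. At an unadjusted p under 0.05, 3 were higher and 1 was lower. Their median log2 fold change was 0.33, and -0.14 when the genes of lowest level were fitted too, without a minimum FPKM. The summed level of all 22 genes was 742.7, 1118 and 879.8 CPM in control libraries 1, 2 and 3 and 1223, 1303 and 1092 CPM in lead libraries 1, 2 and 3. Lead 3 lay below control 2, so the summed levels of the groups overlapped.

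LOC109068332, a ryanodine receptor 2-like gene (ryanodine receptor 2 is the form of heart and most brain neurons), showed the smallest p of the family. It lies at NW_017538835.1:122234-124353 on the plus strand. It had 14.8, 16.2 and 12.7 CPM in control 1, 2 and 3 and 23.9, 25.8 and 26.5 CPM in lead 1, 2 and 3. The lead group was wholly above the control group, with means of 14.6 ± 1.74 and 25.4 ± 1.36 CPM (SD, n = 3 each). Lead over control gave a log2 fold change of 0.80 (SE 0.16), with an adjusted p of 0.157 in edgeR and 0.00321 in DESeq2. The gene model is implied to be only 572 bases long, and its identifier is a pseudogene in the other assembly, so it stands for a short stretch of a receptor at most. The long ryanodine receptor 2-like gene, LOC109099334, named after its values were seen, had 375.0 ± 114.2 CPM in control and 491.2 ± 19.8 CPM in lead libraries (SD, n = 3 each), which gave 0.39 on the log2 scale at an unadjusted p of 0.123 in edgeR.

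The member of highest level per length was LOC109109003, a partial ryanodine receptor 1-like gene, with a mean of 179.8 FPKM. Ryanodine receptor 1 is the release channel of skeletal muscle and is also made in Purkinje neurons of the cerebellum. The gene lies at NC_031731.1:14510291-14512839 on the minus strand. It had 230.3, 354.9 and 256.9 CPM in control 1, 2 and 3 and 418.2, 498.2 and 359.0 CPM in lead 1, 2 and 3. The groups did not overlap, although control 2 and lead 3 lay side by side. The difference was 0.60 on the log2 scale (standard error 0.21; edgeR adjusted p = 0.237, DESeq2 adjusted p = 0.0888). The neighbouring ryanodine receptor 1-like gene LOC109108995, 23681 bases away on the same strand and named after its values were seen, had 127.8 ± 34.2 CPM in control and 131.8 ± 34.2 CPM in lead libraries, which overlapped (log2 fold change 0.04, SE 0.26; edgeR unadjusted p = 0.869).

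Ryanodine receptor 3, a form found at low level in many brain cells, was represented by 3 tested genes, all with a log2 fold change above 0. The 4 genes not tested had means under 1 FPKM and, fitted without a minimum FPKM, log2 fold changes from -4.02 to -0.46. The longest of them, LOC109113555, was named after its values were seen. It had 119, 90 and 268 counts in control 1, 2 and 3 and 71, 67 and 170 in lead 1, 2 and 3. It lies 95828 bases from the tested gene LOC109113571 on the same strand. The nearly full-length LOC109113571 (implied length 15602 bases, NC_031736.1:14633002-14723836, minus strand) had 27.5, 30.0 and 37.2 CPM in control 1, 2 and 3 and 43.8, 38.3 and 44.8 CPM in lead 1, 2 and 3. Its groups did not overlap, with lead 2 only just above control 3. The difference was 0.42 on the log2 scale (standard error 0.16; edgeR adjusted p = 0.272). The partial copy LOC109092546, second in FPKM of the family at 42.1, differed by 0.45 on the log2 scale (standard error 0.24; edgeR adjusted p = 0.390), and lead 3 at 23.2 CPM fell within the control range of 20.7 to 30.0 CPM. The member lower at an unadjusted p, LOC109095947 (ryanodine receptor 2), named after its values were seen, had 11.95, 9.37 and 15.9 CPM in control 1, 2 and 3 and 9.13, 2.27 and 3.98 CPM in lead 1, 2 and 3. Its groups were separate by a narrow gap between control 2 and lead 1, and the log2 fold change was -1.27 (SE 0.49; edgeR unadjusted p = 0.0348).

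**Figure D2:**
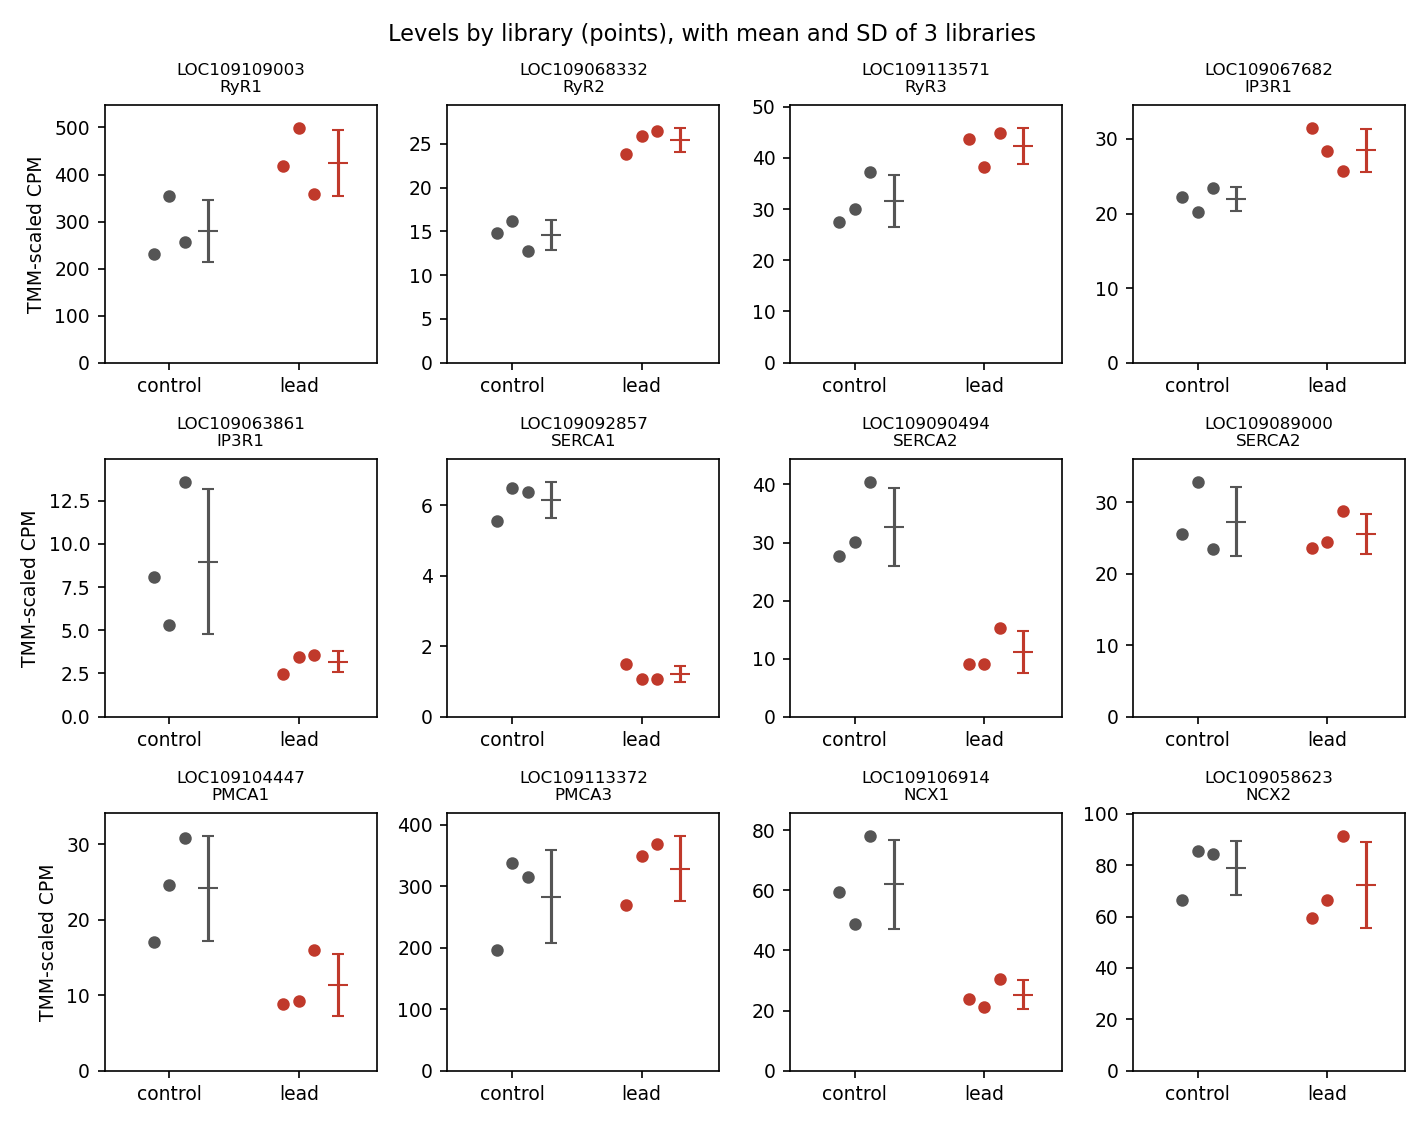
TMM-scaled CPM of named members in each library (points), with the mean and SD of each group beside them. LOC109063861, LOC109092857, LOC109090494, LOC109104447 and LOC109106914 lie lower in all 3 lead libraries. LOC109109003, LOC109068332, LOC109113571 and LOC109067682 lie higher in all 3, and LOC109089000, LOC109113372 and LOC109058623 overlap.

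IP3 receptors, which open when phospholipase C is activated, were present at low levels, the highest being 2.48 FPKM. Their 5 tested genes had a median log2 fold change of -0.20, with 1 lower and 1 higher at an unadjusted p. The 2 genes that stood apart were both IP3 receptor 1-like copies, the main form of brain neurons and especially of Purkinje neurons. LOC109063861 (NW_017538240.1:270790-321511, minus strand) had 8.07, 5.30 and 13.6 CPM in control 1, 2 and 3 and 2.47, 3.46 and 3.58 CPM in lead 1, 2 and 3. The lead group was wholly below the control group, within which control 2 was lowest and control 3 highest. The log2 fold change was -1.50 (SE 0.38), with an adjusted p of 0.186 in edgeR and 0.0204 in DESeq2. This copy reached 1 FPKM in control libraries only, and its identifier is a pseudogene in the other assembly.

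The other copy pointed the opposite way. LOC109067682, the member of highest FPKM in the family, had 22.2, 20.2 and 23.4 CPM in control 1, 2 and 3 and 31.4, 28.4 and 25.7 CPM in lead 1, 2 and 3. The groups did not overlap, and the log2 fold change was 0.38 (standard error 0.15; edgeR adjusted p = 0.290). Summed over the 5 copies of IP3 receptor 1, the level was 45.4 ± 8.53 CPM in control and 45.3 ± 2.60 CPM in lead libraries (SD, n = 3 each), and the groups overlapped. The type 2 copy LOC109051794 differed by -0.30 on the log2 scale (standard error 0.23; edgeR adjusted p = 0.550) with overlapping groups, from 12.1 to 20.2 CPM in control and from 11.9 to 15.3 CPM in lead libraries.

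SERCA pumps lay on the lower side or near 0 in lead libraries. Of the 10 tested genes 9 had a log2 fold change below 0 (90.0%, beside 50.8% of all genes). At an unadjusted p 5 were lower, with groups that did not overlap (50.0%). Over all genes 8.77% were lower at an unadjusted p, and in 12.6% the lead group lay wholly lower. Among the 5 was LOC109090493, which reached 1 FPKM in control libraries only and so entered the test through the group where it was higher. The remaining tested SERCA genes had overlapping groups. Their log2 fold changes ran from -1.37 to 0.01, with unadjusted edgeR p from 0.267 to 0.982. The summed level of the 13 genes was 116.7, 117.7 and 122.2 CPM in control 1, 2 and 3 and 80.4, 63.7 and 84.8 CPM in lead 1, 2 and 3. The control libraries lay close together and above every lead library. Both forms had the lower sums in lead: SERCA2, the pump of heart and brain, summed to 107.5 ± 3.53 CPM in control and 71.4 ± 11.4 CPM in lead, and SERCA1, the pump of fast skeletal muscle, to 11.4 ± 1.48 and 4.87 ± 0.216 CPM (SD, n = 3 each).

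LOC109092857, a SERCA1-like gene, had the smallest p of all members. It lies at NC_031709.1:22377987-22378767 on the minus strand, with an implied length of 516 bases. It had 199, 209 and 208 counts in control 1, 2 and 3 and 44, 28 and 35 counts in lead 1, 2 and 3, or 6.14 ± 0.508 and 1.21 ± 0.237 CPM (SD, n = 3 each). The gap between the groups was far wider than the spread within either. Its log2 fold change was -2.33 (SE 0.31), with an adjusted p of 0.0745 in edgeR and 1.9e-07 in DESeq2, and over 15 other settings it ranged from -2.50 to -2.04 and was called in 4 (DESeq2, both limma fits and a minimum of 5 FPKM). The other SERCA1-like gene lower at an unadjusted p, LOC109090493 (log2 fold change -2.75, SE 1.02), named after its values were seen, reached 1 FPKM in control libraries only.

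LOC109090494, a SERCA2-like gene 7609 bases from LOC109090493 on the same strand (NC_031706.1:8009947-8013934, minus), was the SERCA gene of highest level per length at 18.2 FPKM. It had 27.7, 30.0 and 40.4 CPM in control 1, 2 and 3 and 9.10, 9.10 and 15.3 CPM in lead 1, 2 and 3. Every lead library lay below every control library, and library 3 was the highest of both groups. Lead against control gave a log2 fold change of -1.55 (SE 0.26), with an adjusted p of 0.135 in edgeR and 4.2e-05 in DESeq2. A further SERCA2-like gene, LOC109045508, had 16.2, 9.83 and 10.6 CPM in control 1, 2 and 3 and 7.58, 5.49 and 6.79 CPM in lead 1, 2 and 3. Its groups did not overlap either, and the log2 fold change was -0.88 (standard error 0.27; edgeR adjusted p = 0.211). The second SERCA gene by FPKM, LOC109089000 at 7.71 FPKM, was at 23.5 to 32.8 CPM in control and 23.6 to 28.7 CPM in lead libraries, which overlapped, with a log2 fold change of -0.09 (standard error 0.18; edgeR adjusted p = 0.824). On the same strand it overlaps another SERCA2-like member, LOC109050228, and a gene for DNA polymerase delta subunit 4, LOC109052222, at 26.4 FPKM, so their reads cannot be told apart with certainty. Its identifier is a pseudogene in the other assembly.

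**Figure D3:**
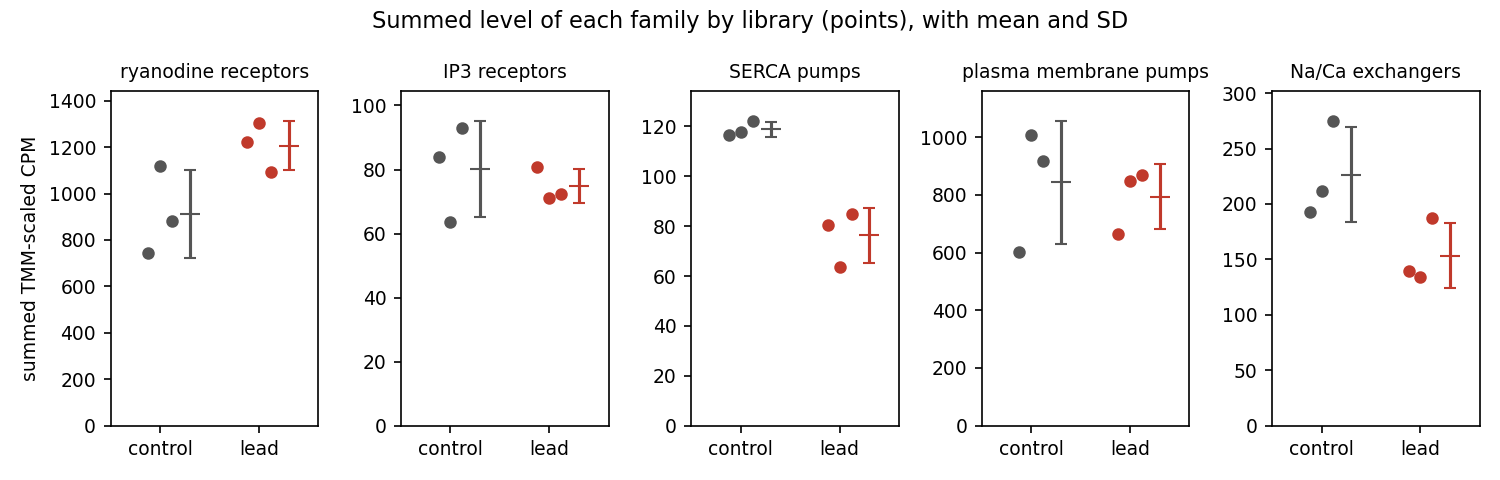
Summed TMM-scaled CPM of all members of each family in each library (points), with the mean and SD of each group. The lead libraries lie below all control libraries for SERCA (63.7 to 84.8 against 116.7 to 122.2) and NCX (133.7 to 187.0 against 193.1 to 274.9), and the groups overlap for the other families.

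PMCA pumps reached the highest level per length of the pumps and exchangers, and their summed level was 843.0 ± 213.2 CPM in control and 793.3 ± 112.3 CPM in lead libraries (SD, n = 3 each). Control 1 was lowest at 602.5 CPM and control 2 highest at 1009 CPM, so the spread among controls was wider than the difference between groups. Of 12 tested genes 4 were lower at an unadjusted p (33.3%, beside 8.77% of all genes) and 0 were higher (beside 7.53%). The abundant copies were not among those 4. LOC109113372, a PMCA3-like gene with 109.8 FPKM, had 196.5, 337.4 and 314.3 CPM in control 1, 2 and 3 and 269.0, 348.6 and 368.4 CPM in lead 1, 2 and 3 (log2 fold change 0.22, SE 0.23; edgeR adjusted p = 0.666). LOC109068745, also PMCA3-like with 71.6 FPKM, ranged from 154.1 to 288.6 CPM in control and from 167.6 to 213.6 CPM in lead libraries (log2 fold change -0.20, SE 0.23; edgeR adjusted p = 0.706). Both had overlapping groups. PMCA3 is a fast form of the pump found mainly in nervous tissue.

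The PMCA genes of smallest p were of lower level. LOC109048862, PMCA3-like, had 15.4, 14.7 and 23.4 CPM in control 1, 2 and 3 and 7.00, 6.26 and 10.2 CPM in lead 1, 2 and 3. The groups did not overlap, and the log2 fold change was -1.19 (SE 0.28), with an adjusted p of 0.170 in edgeR and 0.00924 in DESeq2. LOC109048759, also PMCA3-like, had 2.07, 1.68 and 4.63 CPM in control 1, 2 and 3 and 0.575, 0.922 and 1.23 CPM in lead 1, 2 and 3 (log2 fold change -1.61, SE 0.54; edgeR adjusted p = 0.233). Of the lead libraries, only lead 3 reached 1 FPKM in LOC109048759. LOC109048862 and LOC109048759 belong to a run of 5 PMCA3-like models on 1 strand of NC_031742.1, from 7396869 to 7580002. Neighbours in the run lie as close as 234 bases, so its models may be parts of fewer genes. Within the run 4 models were tested, and their log2 fold changes were -1.19, -1.61, -0.41 and 0.36. LOC109104447, a copy of the widely expressed PMCA1, had 17.0, 24.6 and 30.8 CPM in control 1, 2 and 3 and 8.80, 9.18 and 16.0 CPM in lead 1, 2 and 3. Lead 3 lay just below control 1, and the log2 fold change was -1.09 (standard error 0.31; edgeR adjusted p = 0.205, DESeq2 adjusted p = 0.0369).

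Of the NCX exchangers, copies of NCX1 lay lowest in lead libraries. Of 8 tested genes 7 had a log2 fold change below 0 (87.5%, beside 50.8% of all genes). At an unadjusted p 4 were lower (50.0%, beside 8.77% of all genes). All of these 4 were copies of NCX1, which has 5 tested genes. The 6 copies of NCX1 summed to 91.2, 75.8 and 129.6 CPM in control 1, 2 and 3 and 44.4, 40.3 and 49.8 CPM in lead 1, 2 and 3. Each lead library lay below each control library. The 3 copies of NCX2, a main form of the brain, summed to 122.3 ± 22.0 CPM in control and 104.9 ± 24.3 CPM in lead libraries (SD, n = 3 each), and their groups overlapped. Whether NCX1 and NCX2 differ in their response was not tested.

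The NCX1 gene of highest level was LOC109106914 (NC_031729.1:4827379-4907814, plus strand, implied length 6595 bases). It had 59.4, 48.7 and 77.9 CPM in control 1, 2 and 3 and 24.0, 21.2 and 30.5 CPM in lead 1, 2 and 3, or 62.0 ± 14.8 and 25.2 ± 4.82 CPM (SD, n = 3 each). The lowest control was well above the highest lead library. The log2 fold change was -1.30 (SE 0.22), with an adjusted p of 0.135 in edgeR and 4.5e-05 in DESeq2. A gene on the opposite strand, LOC109106916 with 28.6 FPKM, overlaps it, and the use of strand in counting is unknown (not given in the sources used here), so reads of the pair cannot be told apart.

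Further NCX1-like copies of lower level were also separate between groups. LOC109070483 had 10.9, 5.89 and 14.7 CPM in control 1, 2 and 3 and 2.64, 2.15 and 3.73 CPM in lead 1, 2 and 3. Its log2 fold change was -1.88 (SE 0.39), with an adjusted p of 0.157 in edgeR and 0.00149 in DESeq2. Of the lead libraries, only lead 3 reached 1 FPKM in this copy. LOC109112307 had 6.67, 9.96 and 19.3 CPM in control 1, 2 and 3 and 2.17, 4.34 and 5.80 CPM in lead 1, 2 and 3 (log2 fold change -1.54, SE 0.49; edgeR adjusted p = 0.221, DESeq2 adjusted p = 0.0486). In both copies the groups were separate and control 3 was highest. One copy of NCX1 went the other way, LOC109081696, named after its values were seen, with a log2 fold change of 0.65 at an unadjusted edgeR p of 0.0931. Its groups did not overlap either, at 3.257 to 5.92 CPM in control and 6.045 to 10.25 CPM in lead libraries. LOC109081698 overlaps it on the opposite strand. The NCX genes of highest FPKM were the NCX2-like copies LOC109058623 (22.3 FPKM; log2 fold change -0.13, SE 0.20; edgeR adjusted p = 0.781) and LOC109058604 (12.3 FPKM; log2 fold change -0.23, SE 0.27; edgeR adjusted p = 0.700), both with overlapping groups. The third NCX2 copy, LOC109103415, named after its values were seen, had 15.3 ± 6.66 CPM in control and 8.56 ± 3.11 CPM in lead libraries (SD, n = 3 each; log2 fold change -0.83, SE 0.37; edgeR unadjusted p = 0.0544), and its groups overlapped. Neither of the 2 NCX3-like genes reached the level needed for the test.

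Among the 23 members not tested, 2 ryanodine receptor genes had no count in any library. In 5 of the other 21 all lead libraries lay below all control libraries, beside 7.73% of all genes that were counted but not tested, and in 0 they lay above, beside 2.60%. Counts in one group only were few: 3 members had 4 to 15 counts in all, in control libraries alone, and 2 had 12 to 30, in lead libraries alone.

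The lower members were mainly those of low level. A split at a mean of 10 FPKM, chosen after the data were seen, put 33 tested members below it, 13 of them lower and 2 of them higher at an unadjusted p, with a median log2 fold change of -0.41. Of the 14 at or above it 2 were lower and 2 higher, with a median of 0.06. All genes tested had the same slant, with medians of -0.12 below the split and 0.14 above it. Their shares lower at an unadjusted p were 10.0% and 6.29%, and their shares higher 3.6% and 15.4%. In the members the shares lower were 39.4% and 14.3%, and the shares higher 6.06% and 14.3%. The part of this slant in the members' difference was not tested.

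**Figure D4:**
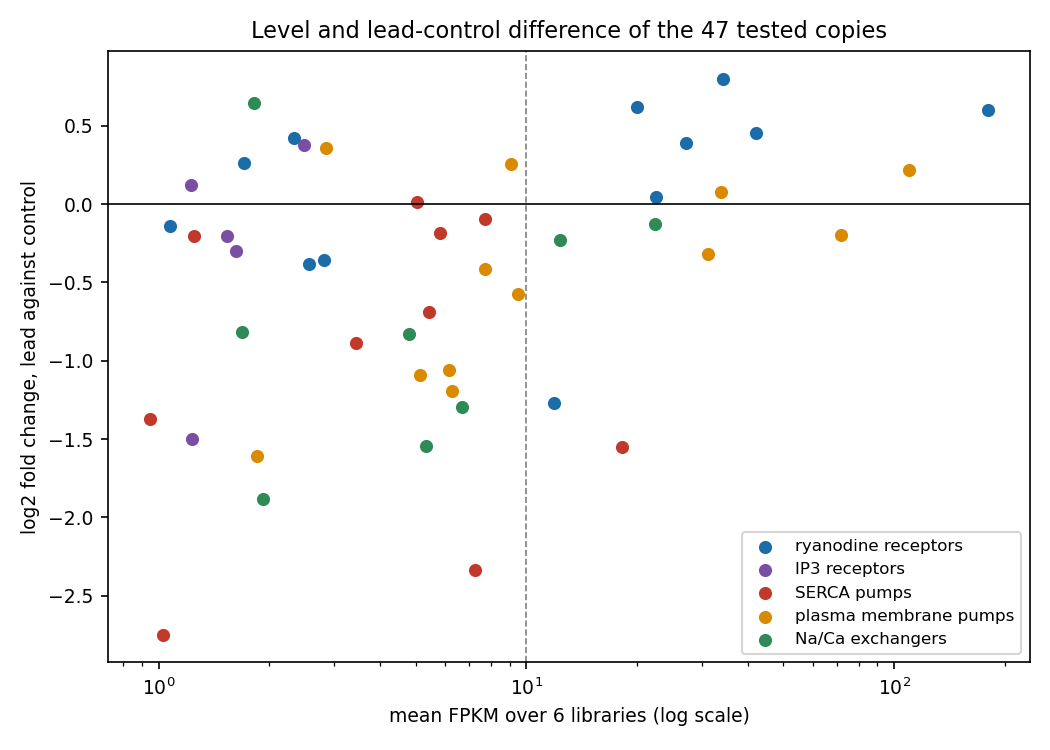
Mean FPKM over the 6 libraries (log axis) against log2 fold change of lead over control for the 47 tested members, coloured by family, with a dashed line at 10 FPKM. Below 10 FPKM most members lie under 0 (median -0.41), and above it they lie on both sides (median 0.06).

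Within a family the 2 genes of highest FPKM could be set against each other inside each library, which removes any scaling of the library as a whole. In SERCA the log2 ratio of LOC109090494 to LOC109089000 was 1.74 ± 0.470 in control and 0.24 ± 0.286 in lead libraries (SD, n = 3 each), a difference of -1.49. The reads of LOC109089000 carry the overlaps given above. In IP3 receptors the log2 ratio of LOC109067682 to LOC109051794 was 0.32 ± 0.302 in control and 0.96 ± 0.160 in lead, and in PMCA that of LOC109113372 to LOC109068745 was 0.42 ± 0.196 and 0.82 ± 0.173. In these 3 families the groups did not overlap, and the exact two-sided permutation p was 0.1 in each, the smallest that 3 against 3 libraries can give (0.167 after Benjamini-Hochberg adjustment over the 5 families). The ratios of the leading ryanodine receptor pair differed by 0.17 (exact permutation p = 0.4) and those of the NCX2 pair by 0.07 (exact permutation p = 0.7), both with overlapping groups.

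**Figure D5:**
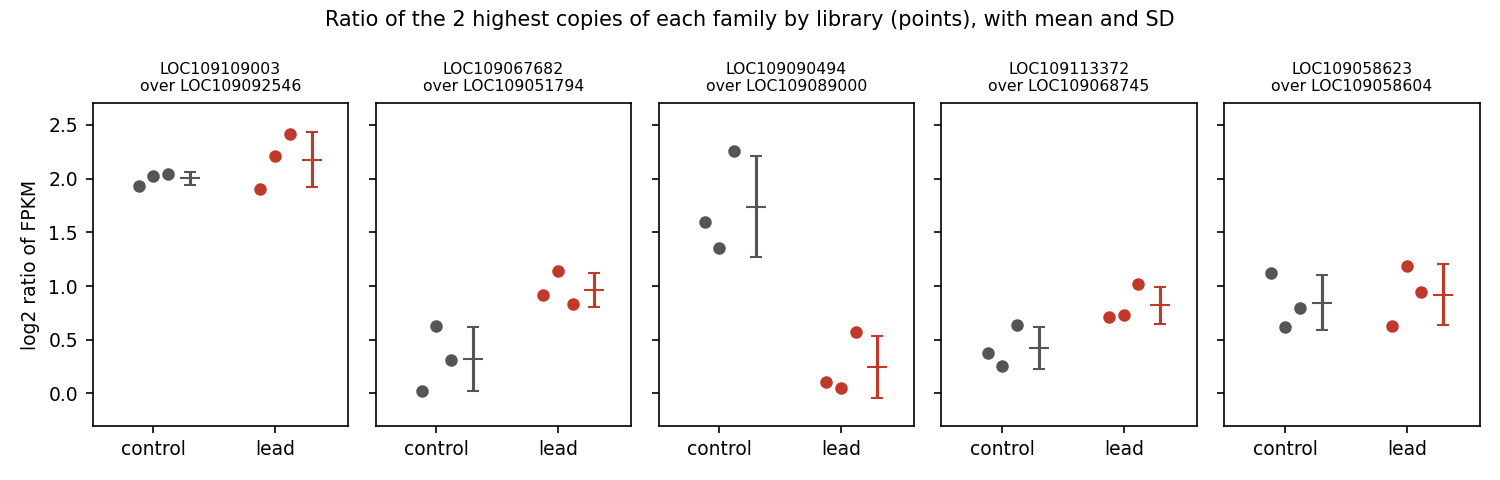
Log2 ratio of FPKM of the 2 genes of highest mean FPKM in each family, in each library (points), with the mean and SD of each group. In SERCA the ratio is 1.74 in control and 0.24 in lead libraries, and the groups are also separate for IP3 receptors and PMCA.

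The proteins that work with these stores and pumps were followed in lists chosen by protein name. No gene of them passed an adjusted p of 0.05 in edgeR. Of 22 tested genes of cytosolic calcium-binding proteins, DESeq2 called 4 lower and 2 higher. Of 30 in the store lumen and junction it called 2 lower and 0 higher. It called 0 lower and 1 higher of 6 in store-operated entry, and 1 lower and 1 higher of 23 in mitochondrial uptake. In the other lists of the pathway it called 0. Beside these stand its shares over all genes, 2.23% lower and 1.89% higher. At the unadjusted edgeR limit used below, 8.77% of all genes lay on the lower side and 7.53% on the higher. For entry of calcium from outside when the store is empty, 6 of 10 genes were tested, 0 were lower and 1 was higher at an unadjusted p (median log2 fold change 0.14). That gene was a copy of stim1 (LOC109088758), the sensor of store calcium, with 100.7, 119.5 and 111.3 CPM in control 1, 2 and 3 and 159.3, 163.8 and 145.5 CPM in lead 1, 2 and 3. Its groups did not overlap (log2 fold change 0.50, SE 0.13; edgeR adjusted p = 0.192), and it also had the highest FPKM of its list. The other tested stim1 copies, named after their values were seen, were at 0.14 (LOC109055798), 0.14 (LOC109104422) and -0.60 (LOC109104084). Each of them had overlapping groups.

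For proteins of the store lumen and of the junction between store and surface membrane, 30 of 48 genes were tested, with 6 lower and 2 higher (median -0.10). Calsequestrin-2 (LOC109083303), which binds calcium inside the store, had 113.6, 103.3 and 163.1 CPM in control 1, 2 and 3 and 41.1, 78.8 and 98.9 CPM in lead 1, 2 and 3. The groups were separate by a narrow gap between control 2 and lead 3 (log2 fold change -0.80, SE 0.33; edgeR adjusted p = 0.299). It had the highest FPKM of its list. The smallest p was that of a homer3 gene (LOC109090415), whose protein ties surface receptors to IP3 receptors, and which differed by -2.43 on the log2 scale (standard error 0.56; edgeR adjusted p = 0.170). Its mean was only 1.13 FPKM, with 2.48 to 6.14 CPM in control and 0.338 to 0.925 CPM in lead libraries. It thus entered the test through control, the group where it was higher. LOC109090415 is also counted in the list of Purkinje neurons. Other homer3 copies, named after their values were seen, were at -1.82 (LOC109050007), -0.005 (LOC109069642) and -0.012 (LOC109069656). For making and removing IP3, 35 of 57 genes were tested, with 2 lower and 0 higher (median -0.15). An IP3 5-phosphatase gene (LOC109112052), which ends the IP3 signal, had the smallest p (log2 fold change -1.10; edgeR adjusted p = 0.267), and the gene of highest FPKM, a phospholipase C (LOC109045005), had a log2 fold change of 0.28 (edgeR adjusted p = 0.771).

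Cytosolic calcium-binding proteins were divided, with 6 of 22 tested genes lower and 3 higher (median -0.21). The calmodulin gene LOC109100202, whose protein activates PMCA pumps, had 516.5, 651.2 and 473.6 CPM in control 1, 2 and 3 and 1035, 917 and 733.6 CPM in lead 1, 2 and 3. All lead libraries were above all control libraries (log2 fold change 0.71, SE 0.19; edgeR adjusted p = 0.191). It had the highest FPKM of this list. A hippocalcin-like 1 gene (LOC109112649), a neuronal calcium sensor, had the smallest p of the list (log2 fold change -0.74, SE 0.17; edgeR adjusted p = 0.175). Mitochondrial uptake, with 23 of 24 genes tested, had 1 lower and 4 higher (median 0.09). The lower one was the outer membrane channel VDAC2 (LOC109100970), with 134.2, 113.2 and 132.1 CPM in control 1, 2 and 3 and 71.8, 86.8 and 90.8 CPM in lead 1, 2 and 3. The groups did not overlap (log2 fold change -0.61, SE 0.15; edgeR adjusted p = 0.182). The gene of highest FPKM, another VDAC2 copy (LOC109095152), had a log2 fold change of 0.19 (edgeR adjusted p = 0.593). The 4 higher genes, described after their values were seen, were all for calcium uptake proteins 1 or 3. Their log2 fold changes were 0.50 to 1.39, and other tested genes for these proteins were at -0.03 to 0.38. Other calcium pumps and exchangers had 1 of 14 tested genes lower and 0 higher (median -0.17), a potassium-dependent sodium/calcium exchanger 3 gene (LOC109093599; log2 fold change -1.10, SE 0.47; edgeR adjusted p = 0.302). Another copy of it (LOC109082212) had the highest FPKM and a log2 fold change of 0.11.

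Muscle outside the brain also makes SERCA1 and ryanodine receptor 1. Skeletal muscle genes, 69 in all with 19 tested, summed to between 758.5 and 834.4 CPM in control and between 894.7 and 1009 CPM in lead libraries, mostly through parvalbumins, which neurons also make. At an unadjusted edgeR p under 0.05, 0 of the 19 were lower and 2 higher, with a median log2 fold change of 0.21. Within the list, fast and skeletal myosin heavy chains summed to at most 0.782 CPM and creatine kinase M to at most 0.993 CPM in any library. Alpha skeletal actins summed to 2.67 to 9.19 CPM in control and 4.93 to 11.7 CPM in lead libraries, and troponins to 61.9 to 81.1 and 77.4 to 94.8 CPM, with overlap in both. Parvalbumins summed to 674.3 to 759.9 CPM in control and 794.8 to 909.0 CPM in lead libraries, without overlap. No marker of a brain cell type was called in edgeR. Beside the 8.77% lower and 7.53% higher over all genes at an unadjusted p, 7 of 16 tested Purkinje neuron genes were lower and 1 higher (median -0.37), 10 of 38 neuron genes were lower and 1 higher (median -0.09), 7 of 15 astroglia genes were lower and 0 higher (median -0.65), and 4 of 13 microglia genes were lower and 0 higher (median -0.38). DESeq2 called 5 of 16 Purkinje, 2 of 38 neuron, 6 of 15 astroglia, 3 of 21 oligodendrocyte and 2 of 13 microglia genes lower. It called 0 genes of these lists higher. In the skeletal muscle, cardiac and smooth muscle, and red blood cell lists it called 0 lower and 1 higher each. Its shares over all genes were 2.23% lower and 1.89% higher. Summed levels of Purkinje genes were 446.1 to 490.8 CPM in control and 414.2 to 530.2 CPM in lead libraries, those of neuron genes 4542 to 5739 and 4733 to 5165 CPM, and those of astroglia genes 4225 to 4964 and 3841 to 4514 CPM, which overlapped in each. Within these lists the summed GFAP genes were separate between groups, as given above. So was the sum of the 3 ELAV genes, for neuronal RNA-binding proteins, which were named after their values were seen. This sum was 125.1 to 212.9 CPM in control and 69.7 to 115.2 CPM in lead libraries. The 4 SNAP25 genes of the same neuron list overlapped in sum. They were at 1009 to 1501 CPM in control and 978.5 to 1341 CPM in lead libraries. Microglia genes summed to 191.3 to 301.6 CPM in control and 154.8 to 203.5 CPM in lead libraries, also with overlap. Of oligodendrocyte genes 4 of 21 tested were lower and 0 higher (median -0.04), of red blood cell genes 1 of 11 was lower and 1 higher (median 0.07), and of cardiac and smooth muscle genes 0 of 9 were lower and 2 higher. The part of these cell types in the members' values was not tested.

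Single libraries moved these counts. Among the 15 members lower at an unadjusted p, control 3 was the highest control library in 10 and lead 3 the highest lead library in 9. Over all 47 tested members these numbers were 24 and 21. Without control 3 the number lower was 9 (19.1%, beside 5.27% of all genes), made up of 1 IP3 receptor, 4 SERCA, 2 PMCA and 2 NCX genes, and with any one of the other 5 libraries left out it was between 12 and 16. The number higher was 4 with all libraries, 1 without control 1, 2 without control 3, lead 1 or lead 2, and 5 without control 2 or lead 3. The median log2 fold change of the tested members was -0.44 without control 1. Over all genes, 4 were called without lead 2.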

How the data were processed

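Poly(A) RNA of carp brain was sequenced in 3 control and 3 lead libraries. The tissue label says brain, while the protocol wording speaks of an adipose type. Per the submitters' processing notes, Bowtie 0.12.2, HISAT2 2.0, StringTie 1.3.0 and the mouse build mm8 were involved, in roles that are not named. The table places genes on carp RefSeq sequences of an assembly not given in the sources used here. The deposited counts, so called in the file headers, are whole numbers per gene and were taken as unscaled. The deposited FPKM values are the authors' fragments scaled to transcript length and library size.

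Genes had to reach 1 FPKM in 3 or more libraries, which 32149 did, and their counts were fitted with edgeR 4.0.16 in R 4.3.3 (TMM scaling, robust quasi-likelihood test), with a biological coefficient of variation of 36.6%. The threshold for a call was 0.05 after Benjamini-Hochberg adjustment over these genes. Copy ratios are on log2(FPKM + 0.01). The members and the gene lists were chosen with earlier results of these data known, and list patterns were trimmed by protein name. Named were, in each family, the 3 genes of smallest p and the 2 of highest FPKM, and in each pathway list the gene of smallest p and the one of highest FPKM. Any other gene is said to be named after its values were seen. Alternatives were median-of-ratios scaling, library totals, other filters, DESeq2 1.42.0, limma 3.58.1 on log2(FPKM + 1) and log2(FPKM + 0.1), removal of a trend on transcript length, a block for the replicate number, and the omission of each library. Reading only genes at 1 FPKM in a library of each group was added after the data were seen. The edgeR step was checked on simulated data.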

Additional observations from a re-analysis of the deposited data

How the results depend on the processing

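Over 15 other settings, 0 members were called, except 1 with a minimum of 5 FPKM, 1 with limma on log2(FPKM + 1), 1 with limma on log2(FPKM + 0.1) and 9 with DESeq2. Over all genes, 30 were called without the low-value filter and 1324 with DESeq2. Leaving out each library in turn gave 4 to 25 genes called, 9 to 16 members lower and 1 to 5 higher at an unadjusted p, and member medians from -0.44 to -0.20 on the log2 scale. The medians were lowest without control replicate 1 and highest without control replicate 2. With a minimum of 5 FPKM, 9 of the 24 members tested were lower (37.5%, beside 10.5% of all genes). On the higher side 2 members were left with library totals, with a minimum of 5 FPKM, with both limma fits and with the length trend removed. Scaling by library totals moved the median of all genes to -0.11. Without the low-value filter 68 members were tested, 18 lower and 4 higher, and the ryanodine receptor median turned from 0.33 to -0.14.

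Of 307 values of the 21 named members under these settings, 292 kept their direction and side of the threshold, 12 passed it, and 3 turned: LOC109058623 was at 0.0026 without lead replicate 1 (range over left-out libraries -0.33 to 0.0026), and without control replicate 2 LOC109068745 was at 0.068 (range -0.39 to 0.068) and LOC109089000 at 0.059 (range -0.19 to 0.059). The difference in the NCX copy ratio turned to -0.041 without control replicate 2 and to -0.061 without lead replicate 2 (range -0.061 to 0.22). The cause was not tested. Deviations of same-numbered libraries correlated at 0.162, 0.0573 and 0.117, and those of differently numbered libraries at -0.183 to 0.0721. The highest of the latter, lead 2 with control 3, exceeded that of lead 2 with control 2. Whether same-numbered libraries were handled together is unknown and was not tested. With a replicate block, 1 gene and 0 members were called, 16 members were lower and 3 higher, and the median was -0.21.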
